A study of Homo sapiens with 16 samples.

Results

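The 10 genes described here are 4 guanylate-binding proteins (GBP1, GBP2, GBP3 and GBP4), 5 genes of ADP-ribosylation that are known as interferon-induced (PARP9, PARP10, PARP12, PARP14 and DTX3L) and PARP1, the DNA-repair enzyme set beside them as a gene that is not of the interferon type. They were chosen by symbol, with no measured value in the choice, and all 10 were found among the 20314 genes of the U251 tables and the 20626 genes of the U343 tables. U251 and U343 are established human glioblastoma lines. Each received, at 25 nM, either a mimic of miR-137 or a control mimic, and cells were harvested after 48 hours. Total RNA (RNASeq) or the RNA bound by poly(A)-binding protein and recovered with antibodies to it (RIPSeq) was sequenced. The 4 experiments, which are the 2 assays in the 2 lines, each held 2 control libraries and 2 miR-137 libraries, so that there were 16 libraries in 8 groups. Within a line, no genetic change separated the groups. Control cells, too, were transfected with a mimic, and no untransfected cells were among the samples. The labels do not say that the libraries of a group came from separate cultures, so the p-values measure only the spread between these libraries, which may be technical.

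Guanylate-binding proteins are large GTPases that assemble on the vacuoles and membranes of intracellular pathogens, and their genes are classical targets of interferon gamma and, more weakly, of type I interferon. PARP enzymes transfer ADP-ribose from NAD+ onto proteins and nucleic acids. PARP1 builds long poly(ADP-ribose) chains at DNA breaks and is abundant in most nuclei, whereas PARP10, PARP12 and PARP14 attach single ADP-ribose units and take part in antiviral defence, and PARP9 works as a complex with the ubiquitin ligase DTX3L. Promoters of interferon targets often carry the interferon-stimulated response element (ISRE) or the gamma-activated sequence (GAS), the letters that interferon-activated transcription factors bind.

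The mimic carries the mature miR-137, which is shown because the main comparisons are between cells with and without it. Its sequence in RefSeq lies at chr1:98046091-98046113 on the minus strand of GRCh38.p14, and the capitals mark the seed, bases 2 to 8.
hsa-miR-137-3p: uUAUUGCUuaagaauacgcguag

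Promoter windows of 300 bases (250 before and 50 after each annotated start, RefSeq, GRCh38.p14) were searched for 8 of the 10 genes. There were 9 windows, since PARP9 has 2 starts. No window of GBP2 or PARP10 was searched, so whether their promoters hold the ISRE or GAS letters was not tested. The ISRE core GAAANNGAAA, or TTTCNNTTTC on the other strand, was found in windows of 7 of these 8 genes. By window, all 9 held a match except that of PARP1 and 1 of the 2 of PARP9, against 3.57% of all 35116 promoter windows. PARP1 was the gene without a match among these 8. The GAS letters TTCNNNGAA, which read the same on both strands, were found in GBP3 and PARP14, against 7.66% of all windows. In neither gene did the ISRE and GAS letters overlap. The stretches below show each ISRE match in capitals, with 25 bases on either side, read along the gene. Those of DTX3L and PARP9 are the same 10 bases of chromosome 3 (122564332 to 122564341), since their windows overlap, and the stretch is printed once. The full window of PARP1, with no capitals, is shown for contrast.
GBP1, chr1:89065301-89065360, minus strand: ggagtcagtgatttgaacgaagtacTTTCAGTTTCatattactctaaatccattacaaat
GBP3, chr1:89022830-89022889, minus strand: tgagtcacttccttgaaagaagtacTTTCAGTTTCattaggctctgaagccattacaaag
GBP4, chr1:89198912-89198971, minus strand: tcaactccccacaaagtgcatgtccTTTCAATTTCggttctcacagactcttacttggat
DTX3L and PARP9, chr3:122564307-122564366, plus strand: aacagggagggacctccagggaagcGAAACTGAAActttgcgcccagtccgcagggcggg
PARP14, chr3:122680785-122680844, plus strand: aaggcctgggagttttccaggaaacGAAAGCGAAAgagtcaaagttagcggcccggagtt
PARP12, chr7:140062927-140062986, minus strand: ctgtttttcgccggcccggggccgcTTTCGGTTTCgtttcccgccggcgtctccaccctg
PARP1, chr1:226408044-226408343, minus strand: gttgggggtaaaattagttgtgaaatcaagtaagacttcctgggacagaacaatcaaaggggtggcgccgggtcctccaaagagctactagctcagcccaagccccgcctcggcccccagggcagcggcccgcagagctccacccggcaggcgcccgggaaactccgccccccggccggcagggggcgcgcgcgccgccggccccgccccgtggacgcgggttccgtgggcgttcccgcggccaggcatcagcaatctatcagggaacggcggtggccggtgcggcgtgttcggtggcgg

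The ISRE match began 127 bases before the start in GBP1, 41 in PARP9, 29 in PARP14, 10 in PARP12, 6 in DTX3L and 4 in GBP4, and at base 3 of the transcript in GBP3. A match of letters is a description of these windows and was not tested as a binding site.

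**Figure D1:**
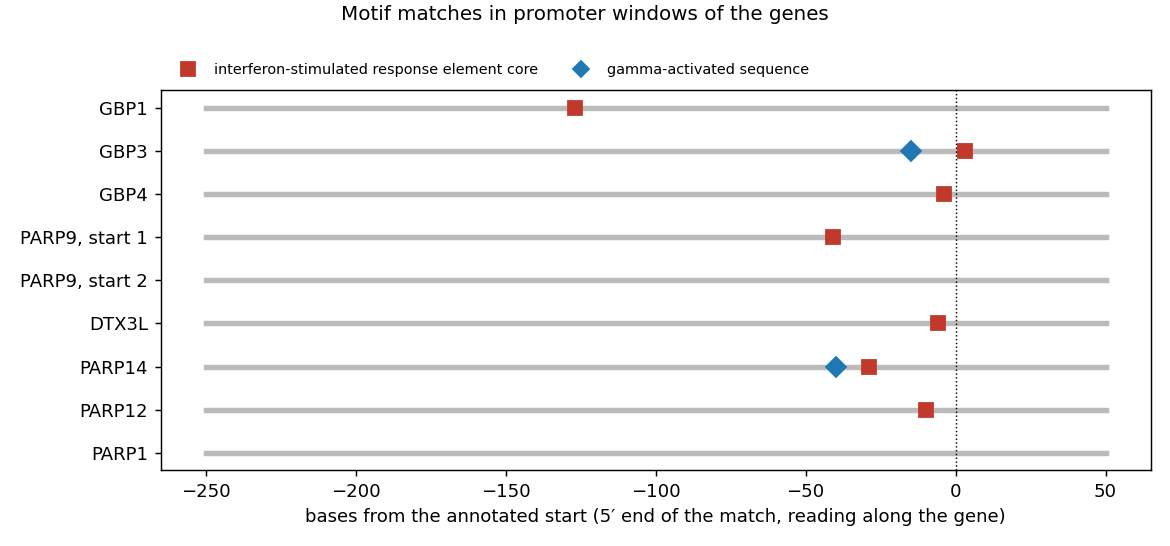
Positions of motif matches in the 9 promoter windows, in bases from the annotated start (horizontal axis), with one grey line per window. Squares mark the ISRE core and diamonds the GAS letters at the 5′ end of each match. The squares lie between 41 bases before the start and base 3 of the transcript except that of GBP1, which is 127 bases before it, and PARP1 and one of the PARP9 windows hold none.

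In hg18, the build of the counts, the 4 guanylate-binding protein genes lie within 192.3 kb of chromosome 1, all on the minus strand: GBP3 (89244948 to 89261137), GBP1 (89290575 to 89303631), GBP2 (89345898 to 89364387) and GBP4 (89419419 to 89437221). PARP9 (123729452 to 123766213, minus strand), DTX3L (123765875 to 123776739, plus strand) and PARP14 (123882362 to 123932377, plus strand) lie within 202.9 kb of chromosome 3. PARP9 and DTX3L point away from each other, and their annotated spans overlap by 339 bases. PARP12 lies on chromosome 7 (139370018 to 139409990, minus strand), PARP10 on chromosome 8 (145123308 to 145132623, minus strand) and PARP1 on chromosome 1 (224615015 to 224662424, minus strand). The guanylate-binding proteins are close paralogs, GBP1 has the pseudogene GBP1P1 and PARP1 the pseudogenes PARP1P1 and PARP1P2, so reads of 36 bases could have been split between copies and the values of these genes carry that uncertainty.

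Counted reads per library ranged from 10156675 to 18224061 in U251 RNASeq, from 22359794 to 30731476 in U251 RIPSeq and from 37736206 to 45134766 in U343, so the U343 values rest on deeper sequencing. Libraries stood apart in 2 of the 8 groups. In U343 RNASeq, replicate 1 of the miR-137 group was not above the controls as a whole in the 9 interferon-type genes (median log2 ratio to the control mean of -0.15), with 6 of them between -0.25 and 0.09 and GBP3 (-2.11), GBP1 (-1.37) and GBP2 (-0.50) lower. Replicate 2 had a median of 3.13. Both libraries were nevertheless low in 28 genes that fell in each of the other 3 experiments (25 and 28 of the 28 below both controls, medians of -1.58 and -1.45), so neither went against its label by that measure. In U251 RIPSeq, the 2 control libraries differed by a median of 0.61 on the log2 scale over all genes with a mean of at least 1 CPM (the read count scaled to library size), against 0.06 for the 2 miR-137 libraries. No pair of replicates was the same library within sampling noise: the chi-square per degree of freedom was 2.63 for the miR-137 pair of U251 RIPSeq and higher for each of the other pairs, up to 247 for the controls of U251 RIPSeq.

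Levels are given as CPM scaled by TMM factors within each experiment, and log2 changes come from edgeR with their standard errors (SE). A gene was called where its Benjamini-Hochberg adjusted p over all genes tested was under 0.05. No transcript lengths were used, so levels are compared between samples and not between genes. All 10 genes passed the filter on low counts in all 4 experiments. In U251 RNASeq, GBP4 had 5 reads in each control library and passed it through the miR-137 libraries. Its call as higher in that experiment is thus not independent support. Fewer cells expressing a gene and less RNA per cell cannot be told apart in these bulk libraries.

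With miR-137, the interferon-type genes were higher in both assays of U251 and in U343 RIPSeq, and in 1 of the 2 miR-137 libraries of U343 RNASeq. PARP1 was not higher in any experiment. In U251 RNASeq, 9 of the 10 genes rose and none fell, where 28.7% of all 13052 genes tested rose and 29% fell. In U251 RIPSeq, 6 of the 10 rose and none fell, against 0.944% and 0.263% of all 14087 genes. In U343 RNASeq none of them rose and PARP1 fell, against 8.31% and 11.7% of 15088 genes. There edgeR gave 1 of the 10 at an unadjusted p under 0.05, and DESeq2 also called PARP1 alone. In U343 RIPSeq, 9 rose and PARP1 fell, against 28.5% and 27.8% of 14866 genes.

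Over the 9 interferon-type genes, the median log2 change was 2.71 in U251 RNASeq, 3.29 in U251 RIPSeq, 2.28 in U343 RNASeq and 3.10 in U343 RIPSeq, where the medians over all genes tested lay between -0.02 and 0.02. The U343 RNASeq value lies between the medians of its 2 miR-137 libraries, -0.15 and 3.13, and describes neither. The 4 guanylate-binding proteins had medians of 0.80, 1.75, 0.90 and 1.31 in the same order, and the 5 PARP and DTX3L genes medians of 2.92, 3.78, 2.37 and 3.21.

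The doubted libraries decided the counts of 2 experiments. Without miR-137 replicate 1 of U343 RNASeq, all 9 interferon-type genes were called higher and PARP1 lower, and without replicate 2 none was higher and 4 were lower, namely GBP1, GBP2, GBP3 and PARP1. Without either control of that experiment, no gene was called. In U251 RIPSeq, leaving out either control library gave 10 calls, 9 higher and PARP1 lower, and leaving out either miR-137 library gave 5, all higher. Each of these fits rests on 3 libraries and takes the lone library of a group to vary like the others.

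**Figure D2:**
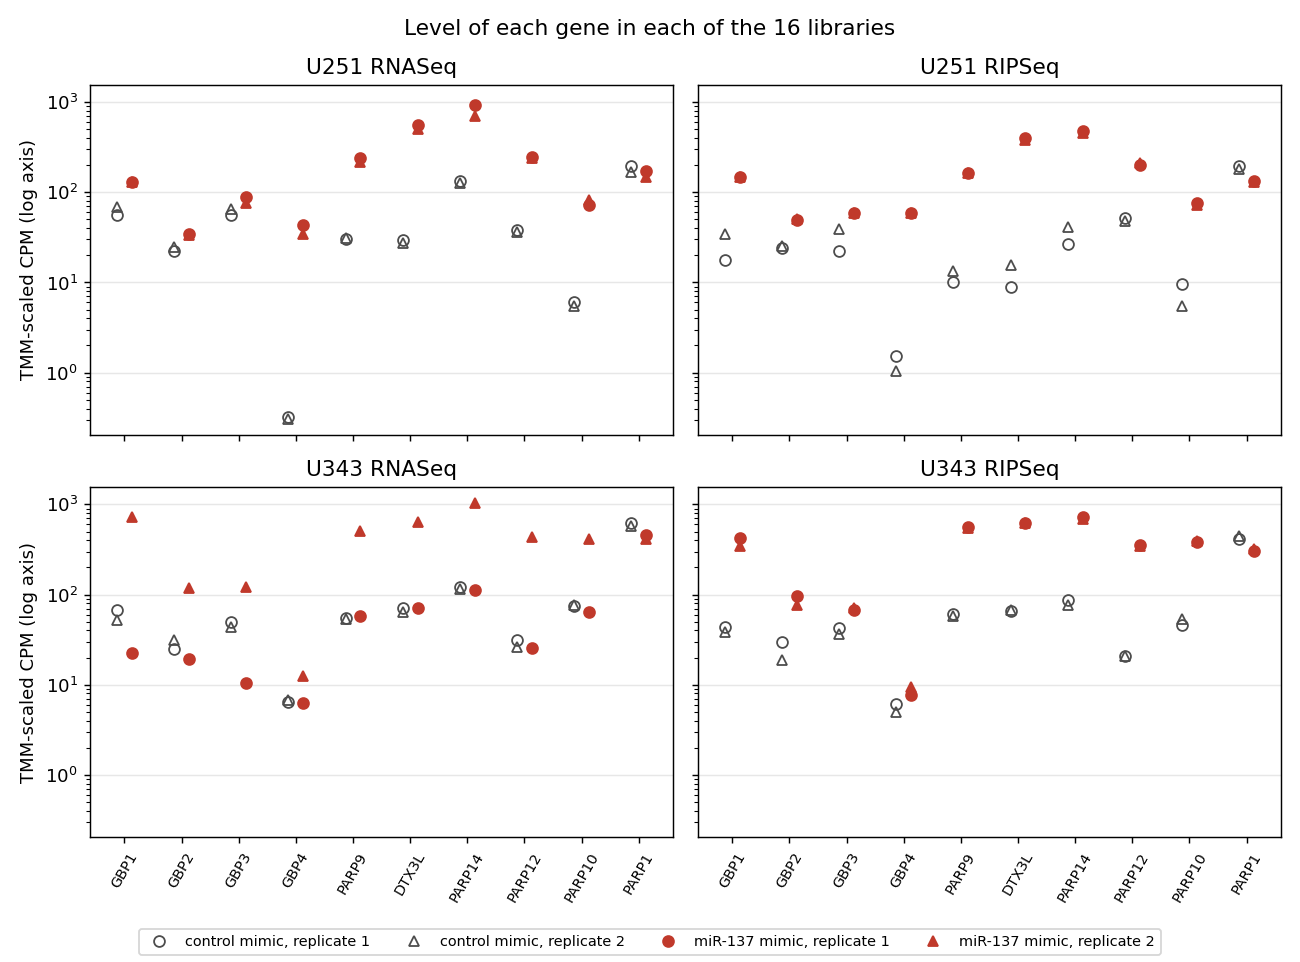
TMM-scaled CPM on a log axis (vertical) of each gene (horizontal) in each of the 16 libraries, one panel per experiment, with open symbols for control and filled symbols for miR-137 libraries, circles for replicate 1 and triangles for replicate 2. In U343 RNASeq the filled circles of the interferon-type genes lie close to the open symbols or below them, down to 10.5 CPM for GBP3, with those of PARP9 (57.3 CPM) and DTX3L (71.7 CPM) just above, and the filled triangles lie above all of these.

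The guanylate-binding proteins differed among themselves. GBP1, a GTPase of the outer coat on bacteria and a classical interferon gamma target, was at 56.4 and 68.1 CPM in the U251 RNASeq controls and at 131 and 129.9 CPM with miR-137. The groups did not overlap, and the log2 change was 1.07 (SE 0.13, adjusted p = 1.8e-05). In U251 RIPSeq, GBP1 was at 17.8 and 34.6 CPM in controls and 146 and 147 CPM with miR-137. The controls differed from each other by 0.94 on the log2 scale, and the change of 2.48 (SE 0.40) was not called (adjusted p = 0.076). It was called by DESeq2 and without either control.

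In U343, GBP1 had 67.1 and 51.8 CPM in the RNASeq controls and 22.5 and 730.0 CPM in the 2 miR-137 libraries. Replicate 1 was thus below both controls and replicate 2 above them, and the change of 2.66 (SE 1.51, adjusted p = 0.27) was not called. Without replicate 2 the log2 change was -1.40, and without replicate 1 it was 3.61, both past the threshold. PABP-bound GBP1 in the same line was at 43.7 and 38.2 CPM in controls and at 422 and 348 CPM with miR-137, a rise of 3.23 (SE 0.13, adjusted p = 2.3e-06). A joint fit of both assays of U343 lost the RIPSeq calls of all 4 guanylate-binding proteins, with adjusted p-values of 0.071 for GBP1, 0.076 for GBP2, 0.50 for GBP3 and 0.16 for GBP4.

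GBP2, another GTPase of the family, had a smaller estimated change than GBP1 in all 4 experiments, a difference that was not tested. Its U251 RNASeq levels were 22.2 and 24.9 CPM in controls and 34.9 and 33.4 CPM with miR-137 (log2 change 0.53, SE 0.14, adjusted p = 0.0053). In U251 RIPSeq they were 24.2 and 25.5 against 49.7 and 50.6 CPM, where the change of 1.01 (SE 0.24) was not called (adjusted p = 0.13) although the groups did not overlap. U343 RNASeq gave 24.7 and 31.0 CPM in controls against 19.4 and 118 CPM, and U343 RIPSeq 29.7 and 18.8 against 95.7 and 77.1 CPM. The second of these was a rise of 1.83 (SE 0.20, adjusted p = 0.00021). Without miR-137 replicate 2 of U343 RNASeq the change was -0.52, again past the threshold.

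GBP3 had the smallest estimated change of the 9 interferon-type genes in both U251 experiments. Its levels were 55.5 and 65.8 CPM in the U251 RNASeq controls and 87.6 and 76.4 CPM with miR-137 (0.43, SE 0.14, adjusted p = 0.015). That call was lost without control replicate 1 and without miR-137 replicate 1, at log2 changes of 0.31 and 0.34. In U251 RIPSeq the levels of 22.6 and 38.9 against 59.4 and 58.7 CPM gave 0.94 (SE 0.35, adjusted p = 0.24). In U343 RIPSeq GBP3 rose by 0.79 (SE 0.09, adjusted p = 0.00029), from 42.7 and 36.9 to 67.6 and 70.5 CPM. U343 RNASeq showed the widest split, with 49.7 and 44.0 CPM in controls against 10.5 and 120.0 CPM, and without replicate 2 the change was -2.16 and past the threshold.

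GBP4 was nearly absent from U251 controls, with 5 reads in each RNASeq control library and 480 and 393 reads with miR-137. Against those 10 control reads, the ratio was 125 with a 95% counting interval of 67.7 to 262 (log2 change 6.93, SE 0.27, adjusted p = 2.5e-10). In U251 RIPSeq, 36 and 29 control reads stood against 1549 and 1596, a ratio of 46.5 (36.4 to 60.4, adjusted p = 0.020). Intervals of this kind cover counting error only. U343 cells already held GBP4 without miR-137, at 6.50 and 6.76 CPM in RNASeq, and the miR-137 libraries had 6.24 and 12.5 CPM. In U343 RIPSeq, GBP4 went from 6.12 and 5.04 to 7.71 and 9.50 CPM, a rise of 0.62 (SE 0.16, adjusted p = 0.012) whose call was lost without control replicate 2 or miR-137 replicate 2.

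PARP9 and DTX3L, the partners of the complex, rose in the same 3 experiments. PARP9 carries macrodomains that bind ADP-ribose, and DTX3L is a RING-type ubiquitin ligase. PARP9 was at 30.1 and 30.8 CPM in U251 RNASeq controls and at 243 and 217 CPM with miR-137 (2.92, SE 0.14, adjusted p = 1.6e-09). DTX3L was at 29.6 and 27.2 CPM against 551 and 506 CPM there (4.22, SE 0.15, adjusted p = 1.1e-10). In U251 RIPSeq, PARP9 went from 10.3 and 13.3 to 164 and 165 CPM (3.80, SE 0.29, adjusted p = 0.025) and DTX3L from 8.84 and 15.6 to 398 and 376 CPM (4.98, SE 0.40, adjusted p = 0.026). Both calls were lost with no filter on low counts (adjusted p = 0.053 and 0.063), at log2 changes of 3.86 and 5.03.

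The 2 genes moved by almost the same factor in U343 RIPSeq. PARP9 rose by 3.21 (SE 0.10, adjusted p = 6.0e-07), from 60.5 and 58.4 to 557 and 547 CPM, and DTX3L by 3.22 (SE 0.10, adjusted p = 6.2e-07), from 66.2 and 67.3 to 616 and 625 CPM. In U343 RNASeq, PARP9 was at 54.8 and 54.3 CPM in controls against 57.3 and 507 CPM with miR-137, and DTX3L at 71.0 and 63.6 against 71.7 and 636 CPM. Replicate 1 of miR-137 was at 1.05 (PARP9) and 1.07 (DTX3L) times the control mean, and neither gene was called (adjusted p = 0.175 and 0.173).

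PARP14, a mono-ADP-ribosyltransferase with macrodomains known from STAT6 signalling, rose in the same 3 experiments. Total RNA of U251 held 134 and 128 CPM in controls and 935 and 708 CPM with miR-137 (2.65, SE 0.16, adjusted p = 3.1e-08). The miR-137 libraries differed from each other by 0.40 on the log2 scale and stayed above both controls. In U251 RIPSeq it went from 26.7 and 41.5 to 477 and 458 CPM (3.78, SE 0.32, adjusted p = 0.027, or 0.068 with no filter on low counts) and in U343 RIPSeq from 86.1 and 77.6 to 724 and 681 CPM (3.10, SE 0.11, adjusted p = 1.3e-06). U343 RNASeq gave 121 and 115 CPM against 113 and 1034 CPM.

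PARP12, a zinc-finger member that inhibits alphavirus replication, showed the largest rise of the group in U343 RIPSeq. It went from 21.0 and 20.8 to 353 and 344 CPM there, a 16.7-fold rise (log2 4.06, SE 0.10, adjusted p = 1.7e-07). In U251 the rises were smaller, from 38.0 and 36.1 to 244 and 241 CPM in RNASeq (2.71, SE 0.13, adjusted p = 2.2e-09) and from 51.3 and 47.7 to 201 and 213 CPM in RIPSeq (2.07, SE 0.23, adjusted p = 0.042). The RIPSeq call was lost without either miR-137 library, and also under upper-quartile scaling (adjusted p = 0.057) and no filter (0.075). U343 RNASeq gave 30.9 and 26.0 CPM in controls against 25.6 and 436 CPM.

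PARP10, a mono-ADP-ribosyltransferase with ubiquitin-binding motifs, was low in U251 controls and rose 13.3-fold in total RNA. Its levels were 6.07 and 5.44 CPM in controls and 71.5 and 81.7 CPM with miR-137 (3.73, SE 0.16, adjusted p = 7.1e-10). In U251 RIPSeq they were 9.69 and 5.48 against 76.0 and 72.2 CPM (3.29, SE 0.39, adjusted p = 0.046), which missed the threshold with upper-quartile scaling (adjusted p = 0.062), a mean of at least 50 reads (0.055) and no filter (0.063). In U343 RIPSeq PARP10 rose from 45.9 and 54.1 to 388 and 391 CPM (2.96, SE 0.11, adjusted p = 1.6e-06). The U343 RNASeq libraries held 75.0 and 76.8 CPM in controls and 64.0 and 418 CPM with miR-137.

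PARP1 did not follow the other 9. In U251 RNASeq it was at 196 and 168 CPM in controls and 172 and 149 CPM with miR-137, groups that overlapped (-0.18, SE 0.14, adjusted p = 0.27). In U251 RIPSeq the levels of 197 and 183 against 132 and 131 CPM did not overlap, and the change of -0.53 (SE 0.22, adjusted p = 0.27) was not called with both controls and was called without either. In U343 it fell in both assays. The levels went from 625 and 579 to 457 and 411 CPM in RNASeq (-0.47, SE 0.10, adjusted p = 0.042) and from 417 and 447 to 304 and 319 CPM in RIPSeq (-0.47, SE 0.10, adjusted p = 0.0043). The U343 RNASeq call was lost without either control and with upper-quartile scaling (-0.44, adjusted p = 0.062). PARP1 thus had the smallest estimate in size of the 10 genes in each experiment. In U343 RNASeq that rank was not resolved, since GBP3 (0.48, SE 1.07) and GBP4 (0.50, SE 0.36) were about as small. PARP1 was not stable in U343, where it was below both controls in both miR-137 libraries of each assay.

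**Figure D3:**
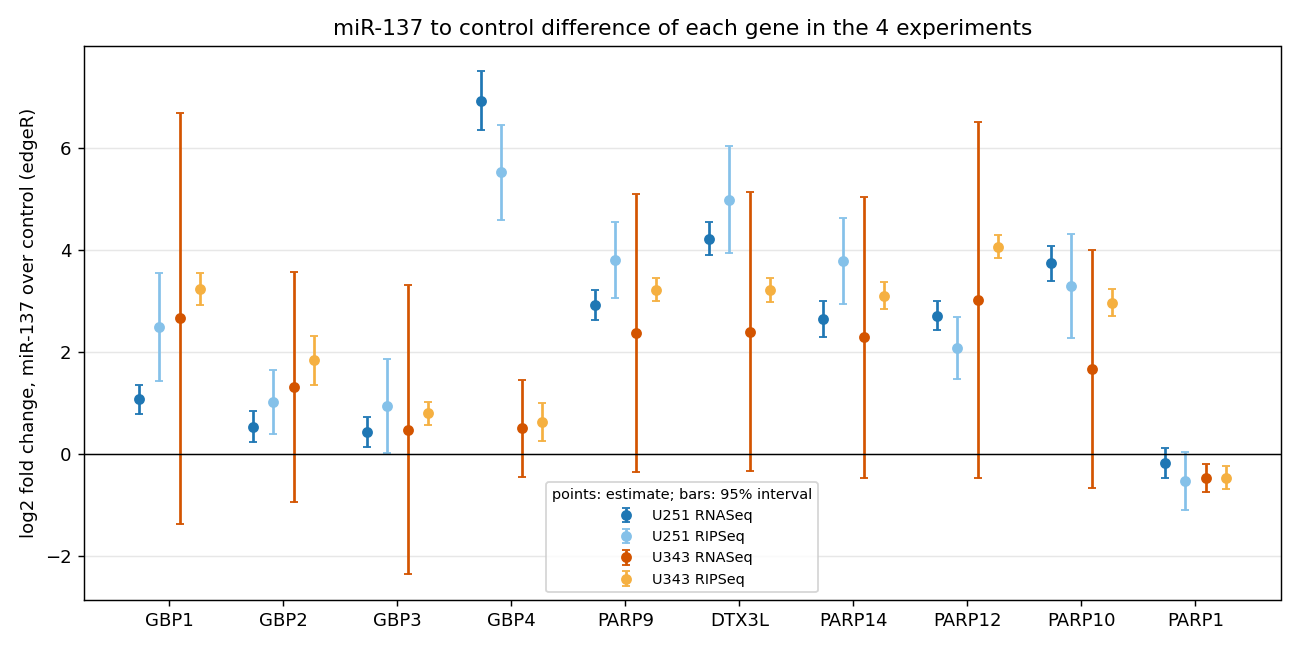
Log2 fold change of miR-137 over control libraries (vertical axis) for each gene (horizontal axis) in the 4 experiments, with points for the edgeR estimate and bars for its 95% interval, unadjusted. The intervals of U343 RNASeq span 0 for the 9 interferon-type genes, and the PARP1 points all lie between -0.53 and -0.18.

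The fit was repeated with the PARP1 count of each library in place of its total, which asks whether a gene changed by another factor than PARP1 did. On this scale all 9 interferon-type genes rose in U251 RNASeq, by 0.60 (GBP3) to 7.10 (GBP4), against 30.8% of all genes. GBP4 passed the filter there through the miR-137 libraries, so its rise is not independent support on this scale either. In U251 RIPSeq 6 of the 9 were called, GBP4, PARP9, PARP10, PARP12, PARP14 and DTX3L, against 2.63%. In U343 RIPSeq all 9 rose, by 1.09 (GBP4) to 4.53 (PARP12), against 55.1%. In U343 RNASeq none was called by edgeR, against 36.3%, with 4 at an unadjusted p under 0.05, and all 9 were called without miR-137 replicate 1. On this scale the median of all genes was 0.20 in U251 RNASeq and between 0.47 and 0.51 in the other 3 experiments, against medians of 2.89, 3.84, 2.82 and 3.57 for the 9 genes.

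The study's own rule applies Fisher's exact test to the reads of every control library set against every miR-137 library, and asks all 4 tests for an adjusted p below 0.001 and an odds ratio beyond 2. Mirrored for rises, this rule compares reads of libraries and not conditions. It called 7 of the 10 genes in U251 RNASeq, with GBP2, GBP3 and PARP1 left out, where 6.14% of all genes were called. In U251 RIPSeq it called 8, all but GBP3 and PARP1, against 3.47%, and in U343 RIPSeq 7, all but GBP3, GBP4 and PARP1, against 4.83%. In U343 RNASeq it called none, against 1.51%, and 8 without miR-137 replicate 1. Without replicate 2 it called 2 falls there. With all libraries, none of the 10 was called as a fall in any experiment. For GBP1 in U343 RNASeq the odds ratio ran from 0.33 to 13.6 over the 4 pairs.

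Whether the 2 assays differed in the size of the change was tested as an interaction within each line. In U251 none of the 10 genes passed in edgeR, where 0.134% of all genes did, with 5 at an unadjusted p under 0.05. DESeq2 called 1. The largest differences, RIPSeq minus RNASeq, were 1.38 for GBP1 (SE 0.41) and -1.47 for GBP4 (SE 0.44), with an adjusted p of 0.17 for both. Without control replicate 2 of U251 RIPSeq 9 genes were called and without replicate 1 there were 4. In U343 none passed either, against 0.00649%, with none at an unadjusted p under 0.05 and none by DESeq2, and 8 were called without miR-137 replicate 2 of RNASeq. The intervals in U343 were wide, from -1.76 to 3.44 for PARP9.

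The test of the difference between cell lines within an assay called GBP4 in both. The difference of its log2 change, U343 minus U251, was -6.46 by RNASeq (SE 0.55, adjusted p = 0.00047), and it was the 1 gene of the 10 called there, where 25.2% of all genes were. By RIPSeq, where 3.28% of all genes were called, the difference was -4.84 for GBP4 (SE 0.37, adjusted p = 0.0083), -1.72 for DTX3L (SE 0.33, adjusted p = 0.042) and 2.05 for PARP12 (SE 0.21, adjusted p = 0.0098). The 3 RIPSeq calls were lost without any one of the 6 libraries other than the U251 controls, and 7 genes were called without either of those. Leaving out miR-137 replicate 1 of U343 raised the RNASeq count to 7 and leaving out replicate 2 raised it to 9. Library kit and cell line cannot be told apart, since U251 and U343 cDNA was made with different kits.

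The starting levels of the 2 lines were compared without miR-137. Of the 10 genes 7 were called, 5 higher and 2 lower in U343, where 84.8% of all genes were called, so a difference between the lines was not particular to the members. In control total RNA, GBP4 was 21.7-fold higher in U343 than in U251 (log2 4.44, 95% interval 3.80 to 5.08, adjusted p = 6.8e-07), a ratio that rests on 10 reads in U251, PARP10 13.7-fold (3.78, SE 0.12, adjusted p = 1.3e-08) and PARP1 3.44-fold (1.78, SE 0.11, adjusted p = 7.9e-07). DTX3L was 1.30 higher (SE 0.10) and PARP9 0.89 higher (SE 0.09) on the log2 scale. GBP3 and PARP12 were lower by a small amount (-0.32 for both, adjusted p = 0.023 and 0.026), and GBP1 (-0.01), GBP2 (0.29) and PARP14 (-0.10) were not called. Upper-quartile scaling gave 6 higher and none lower.

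The levels of PABP-bound and total RNA were compared in the control cells. The shares of members called were near those of all genes and are not a result about the members. In U251, PARP14 (-1.80, SE 0.35, adjusted p = 0.032) and PARP9 (-1.23, SE 0.31, adjusted p = 0.048) were lower in RIPSeq than in RNASeq, 2 calls of 10 where 14% of all genes were called. DESeq2 made 1 call higher and 3 lower. Leaving out either RNASeq control removed both calls and leaving out RIPSeq control replicate 1 or 2 gave 7 or 8. In U343, 6 of the 10 were called, against 48.6% of all genes. PARP10 (-0.50), GBP1 (-0.43), PARP14 (-0.42), PARP1 (-0.37) and PARP12 (-0.34) were lower and PARP9 (0.23) higher, with SE of 0.07 to 0.13. Upper-quartile scaling made the same number of lower calls and none higher. The count was 2 without RNASeq control replicate 1 and 3 without either RIPSeq control.

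**Figure D4:**
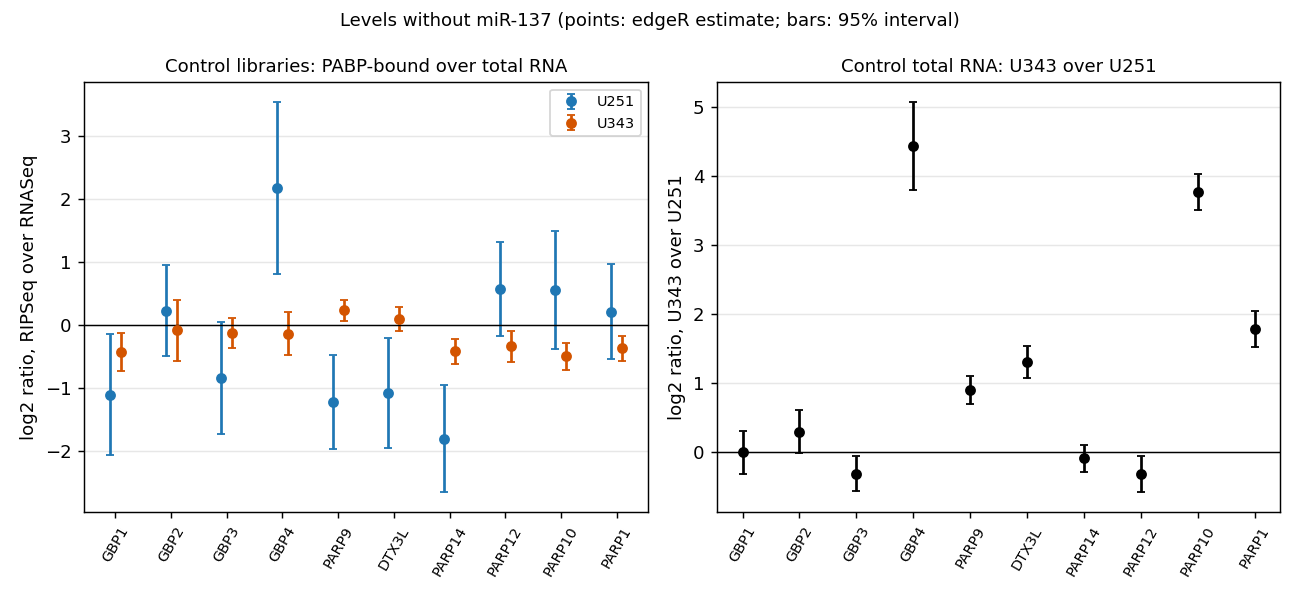
Log2 ratios in control libraries for each gene, with points for the edgeR estimate and bars for the unadjusted 95% interval: RIPSeq over RNASeq in U251 and U343 (left) and U343 over U251 in total RNA (right). GBP4 at 4.44 and PARP10 at 3.78 stand highest on the right, and the U343 points on the left lie between -0.50 and 0.23.

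Other genes of these families were taken from lists, whose counts are to be read against the shares of all genes called: 28.7% higher and 29% lower in U251 RNASeq, 0.944% and 0.263% in U251 RIPSeq, 8.31% and 11.7% in U343 RNASeq, and 28.5% and 27.8% in U343 RIPSeq. Of the 3 further guanylate-binding proteins, GBP5, GBP6 and GBP7, all 3 rose in U251 RNASeq, none of 3 was called in U251 RIPSeq, none of the 2 tested in U343 RNASeq and both of those tested in U343 RIPSeq rose. In the U251 RNASeq controls, GBP6 had 3 and 7 reads and GBP7 had 0 and 1. Both passed the filter there through the miR-137 libraries, so these rises are not independent support. Of 12 further PARP family genes, 6 rose and 3 fell of 11 tested in U251 RNASeq, none of 12 was called in U251 RIPSeq, 2 rose and 1 fell of 11 in U343 RNASeq, and 6 rose and 2 fell of 12 in U343 RIPSeq. Their median log2 changes were 0.54, 0.24, 0.13 and 0.45 in that order, below the medians of the 5 members described here. Among 5 tested genes that remove ADP-ribose, none rose in any experiment, 2 fell in U251 RNASeq and 1 in U343 RIPSeq.

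The partners of PARP1 in DNA repair were 8 genes, of which PARP2 is also in the list before. Against 29% of all genes that fell in U251 RNASeq, 11.7% in U343 RNASeq and 27.8% in U343 RIPSeq, 5 of them fell and 1 rose in U251 RNASeq, 3 fell in U343 RNASeq and 4 in U343 RIPSeq, with none called in U251 RIPSeq. XRCC1, the scaffold of single-strand break repair, was the gene of this list called in opposite directions, with log2 changes of 0.67 in U251 RNASeq (adjusted p = 0.0017) and -0.39 in U343 RNASeq (adjusted p = 0.0496). No gene of any of these lists passed the threshold in one direction in all 4 experiments.

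Of 10 interferon receptors, JAK kinases and transcription factors, 6 rose and 2 fell in U251 RNASeq and again in U343 RIPSeq, 2 rose in U251 RIPSeq and 1 fell in U343 RNASeq. The share that fell, 2 of 10, was not above that of all genes (29% and 27.8%), and 28.7% and 28.5% of all genes rose. In U251 RIPSeq 0.944% of all genes rose. In U343 RNASeq 11.7% of all genes fell, near the 1 of 10. Reads of interferon ligands were few in all control libraries. Their summed reads (IFNG, IFNB1, IL28A, IL28B and IL29) were 1 per control library of U251 RNASeq against 9 and 13 with miR-137, 5 and 12 against 497 and 524 in U251 RIPSeq, and 0 and 4 against 1714 and 3218 in U343 RIPSeq. In U343 RNASeq they were 1 in each control library, 3 in miR-137 replicate 1 and 1486 in replicate 2. The 2 miR-137 libraries thus split as they did for the members. IFNG alone had 0 to 6 reads per library, so the sums do not show a rise of it. Its control and miR-137 reads were 0 and 2 in U251 RNASeq and 7 and 3 in U251 RIPSeq. In U343 its reads were 0 and 0 by RNASeq and 1 and 0 by RIPSeq. Of the ligands past the filter, 2 of 2 were called higher in U251 RIPSeq and 4 of 4 in U343 RIPSeq, and none passed it in RNASeq. Over all genes, 0.944% and 28.5% were called higher in those 2 experiments. With so few control reads, these ligands passed the filter through the miR-137 libraries where they were high. Their calls as higher were thus close to fixed in advance and are not support. The part of these ligands in the levels of the members was not tested.

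Markers of the cells were checked against the labels. Of 8 glioma and astrocyte markers, VIM, NES, CD44, SOX2 and TNC had at least 1164 reads in each of the 16 libraries. GFAP, the defining astrocyte filament, was low in U251 (37 to 537 reads). Over the 16 libraries, S100B had 2 to 436 reads and FABP7 had 162 to 5280. Members of this list were called in opposite directions between experiments, CD44 at -0.79 in U251 RNASeq and 0.61 in U343 RNASeq, FABP7 at -2.56 in U251 RNASeq and 0.46 in U343 RIPSeq, NES at -1.25 in U251 RNASeq and 1.37 in U343 RIPSeq, and TNC at 0.61 in U251 RNASeq and -1.09 in U343 RIPSeq. The list held 6 falls and 1 rise in U251 RNASeq, no call in U251 RIPSeq, 2 rises in U343 RNASeq and 2 of each in U343 RIPSeq. Counts of this list and the other marker lists are to be read against all genes. Of these, 28.7% rose and 29% fell in U251 RNASeq, and 0.944% and 0.263% in U251 RIPSeq. In U343 the shares were 8.31% and 11.7% by RNASeq, and 28.5% and 27.8% by RIPSeq. The 2 of each among 8 in U343 RIPSeq were thus near the shares of all genes. The 6 immune cell markers summed to 8.88 to 10.8 CPM in U251 RNASeq controls against 80.8 to 89.4 CPM with miR-137, 15.8 to 20.8 against 91.8 to 104 CPM in U251 RIPSeq, 4.38 to 5.67 against 5.60 to 34.6 CPM in U343 RNASeq, and 4.21 to 4.52 against 92.0 to 111 CPM in U343 RIPSeq. Of that list 2 of 2 tested genes rose in U251 RNASeq, 1 of 3 in U251 RIPSeq and none of 3 in U343 RNASeq, and 1 of 3 rose and 1 fell in U343 RIPSeq. The 2 in U251 RNASeq were CD68 and CD14. CD14, with 10 and 1 control reads, passed the filter there through the miR-137 libraries, so its rise is not independent support. Most reads of the immune list were of CD68, a lysosomal protein that is not limited to immune cells. The defining leukocyte marker PTPRC had 1 to 13 reads per library, CD3E was at 0 in 6 of the 16 libraries, and without CD68 the list held 4 to 85 reads per library. The part of CD68-bearing cells in the members' levels was not tested. Endothelial and erythroid markers summed to 0.43 to 3.26 CPM in U251 and 23.4 to 37.8 CPM in U343, and hemoglobin genes had at most 2 reads. None of 2 tested genes of that list was called in U251 RIPSeq, 1 of 3 rose in U343 RNASeq, and 1 rose and 1 fell of 3 in U343 RIPSeq.

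Across the 16 libraries, the genes whose log2 CPM followed each of 3 members most closely were taken from 14885 genes. They were TRIM5, TDRD7 and TNFSF10 for GBP1 (Pearson r of 0.96, 0.945 and 0.943), DDX60, SAMD9L and TLR3 for PARP14 (0.98, 0.98 and 0.97) and ITPKB, MYH10 and CHDH for PARP1 (0.99, 0.98 and 0.98). Among the members, PARP9 and DTX3L were closest (0.98), and GBP4 and GBP3 were far apart (0.29). The correlations of PARP1 with the interferon-type genes ran from -0.41 (PARP12) to 0.38 (PARP10). These values describe 16 libraries that share cell line, kit and transfection in blocks and carry no test.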

How the data were processed

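Total RNA and PABP-bound RNA of U251 and U343 cells were sequenced for 36 cycles after removal of ribosomal RNA. U251 cDNA was made by random-hexamer priming and U343 cDNA with another kit. Per the labels and the methods of the study, the authors mapped reads with RMAP against hg18, collapsed the RefSeq isoforms of each gene and deposited raw read counts per gene. The treatment of reads with more than one mapping position is not given in the sources used here. Groups came from the cell line, assay and transfection in the labels.

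Counts were tested with edgeR 4.0.16 in R 4.3.3 (quasi-likelihood F test, TMM factors, filterByExpr) with Benjamini-Hochberg adjustment over all genes tested and a threshold of 0.05. Interactions, the comparison scaled to PARP1 and the study's Fisher rule (Python 3.11.15, SciPy 1.17.1, two-sided, adjusted over all genes of a table) were fitted on whole tables. Ratios of miR-137 to control reads with under 100 control reads carry exact (Clopper-Pearson) 95% intervals. The procedures were tested on simulated data. The alternatives were DESeq2 1.42.0, upper-quartile scaling, no filter beyond 1 read, a mean of at least 50 reads, a replicate block, a joint fit of 8 libraries, each library left out, and for the rule an odds ratio over 1.5 and TMM-scaled totals. Named are all 10 members, listed genes called in one direction in all 4 experiments or in opposite directions, and the 3 genes most like GBP1, PARP14 and PARP1. CD68 and the other markers named singly, and the ligands, were picked after their values were seen. The members, lists and tests were chosen with earlier results of these data known. Genes with a mean of at least 10 reads entered the correlations, and log2 ratios of single libraries used an offset of 0.5 CPM.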

Additional observations from a re-analysis of the deposited data

Results flagged for a closer look

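Differences of 3 genes between the cell lines passed the test of the difference itself. The log2 change of GBP4 with miR-137 was -6.46 in U343 relative to U251 by RNASeq and -4.84 by RIPSeq. U251 controls held 10 reads of GBP4 in RNASeq and 65 in RIPSeq, against 556 and 481 in U343, so the U251 ratios rest on few reads. The RNASeq value ranged from -7.04 to -6.04 and stayed past the threshold in the 13 other settings tried, and the RIPSeq value lost its call in 6 of 13.

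By RIPSeq, the change of PARP12 was 2.05 higher in U343 than in U251 and that of DTX3L was -1.72 relative to U251. Their calls were lost in 6 and 8 of the 13 other settings. Cell line and library kit cannot be told apart in these differences.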

How the results depend on the processing

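Counts of members called fell within 1.5 times of the reported count in 128 of 167 alternative fits, and for single genes the side of the threshold and the direction stayed in 624 of 731. With no filter on low counts, U251 RIPSeq gave 1 call, PABP-bound against total RNA in U251 gave 0, and U343 RNASeq relative to PARP1 gave 2. Upper-quartile scaling gave 0 in U343 RNASeq. It moved the median of all genes from 0.02 to 0.16 in U251 RNASeq, from -0.04 to -0.18 for the assay difference in U251 and from 0.10 to 0.21 between the lines. A joint fit gave 6 in U343 RIPSeq. DESeq2 gave 1 for the assay difference in U251 and 4 for PABP-bound against total RNA in U251, where a mean of at least 50 reads gave 1. The cause was not tested in any of these.

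With single libraries left out, the counts ran from 5 to 10 in U251 RIPSeq, 0 to 10 in U343 RNASeq, 0 to 9 relative to PARP1 in U343 RNASeq, 0 to 9 (U251) and 0 to 8 (U343) for the assay difference, 1 to 9 (RNASeq) and 0 to 7 (RIPSeq) for the cell line difference, 0 to 8 (U251) and 2 to 5 (U343) for PABP-bound against total RNA, and 0 to 8 by the study's rule in U343 RNASeq. The U343 RNASeq changes of GBP1 ran from -1.40 to 3.61, of GBP2 from -0.52 to 2.08 and of GBP3 from -2.16 to 1.35, with the negative ends without miR-137 replicate 2.

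Labels give no batch to the replicate numbers. Deviations of same-numbered libraries correlated by 0.03 in U251 RNASeq, 0.05 in U251 RIPSeq, 0.14 in U343 RNASeq and 0.26 in U343 RIPSeq, over 2 pairs each. A replicate block gave 9, 7, 1 and 10 calls of the 10 genes in that order, and 5 for PABP-bound against total RNA in U251. Depth limits GBP4 most, which had 10 control reads in U251 RNASeq.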
